A study of Mus musculus with 32 samples.

Results

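The genes described here are 10 genes by which astrocytes are followed in tissue RNA, out of 22337 genes in the deposited tables. They were chosen by symbol: Gfap, Vim, Serpina3n, Osmr, Lcn2, S100a6 and Cd44, which are used as marks of reactive astrocytes, the water channel gene Aqp4, and 2 genes of astrocyte housekeeping, Slc1a2 and Gja1. Earlier results of these data were known when the members and the other gene lists were chosen. RNA-seq was made from 32 samples of 6-month-old male mice on a C57BL/6J background. WT mice were littermates without the 5xFAD transgenes, which express mutated human proteins, APP among them, in neurons under the Thy1 promoter. The 5xFAD + light mice were given repeated sessions of near-infrared light through the shaved scalp under isoflurane. The other 5xFAD mice went through the same anesthesia and shaving under indoor lighting. The paper does not say separately whether the WT mice had the anesthesia and shaving. No light-treated WT mice are among these samples. Hippocampus came from 4 WT, 4 5xFAD and 4 5xFAD + light mice, meninges from 4, 3 and 3, and meningeal lymphatic endothelial cells (mLECs), sorted as CD45- CD31+ PDPN+ cells, from 4, 3 and 3. No source states that hippocampus, meninges and mLECs of the same number came from the same mouse.

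Astrocytes clear glutamate and potassium from around synapses, are coupled to each other by gap junctions, and wrap vessels with endfeet in which AQP4 is concentrated and lets water pass between blood vessels, brain and cerebrospinal fluid. Near injury or amyloid plaques they become reactive: their intermediate filaments GFAP and vimentin thicken, and they make secreted proteins such as the protease inhibitor encoded by Serpina3n and the siderophore-binding protein encoded by Lcn2. Oncostatin M and related cytokines act on astrocytes through OSMR and its partner gp130, which signal through JAK kinases to STAT3, a known regulator of Gfap.

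Gfap and Osmr were higher than in WT in both groups of 5xFAD hippocampi, so the start regions of these genes are shown, with short sequence motifs in capitals. RefSeq promoter windows on GRCm38.p6, from 250 bases before to 50 bases after the start of transcription, were matched by symbol for 9 of the 10 members. Both strands were searched for the STAT motif TTCNNNGAA and the AP-1 motif TGANTCA, each of which reads the same on both strands; the matches did not overlap each other. The Gfap window lies at chr11:102897151-102897450 on the minus strand and holds the STAT motif. The Osmr window lies at chr15:6874264-6874563 on the minus strand and holds the AP-1 motif.
Gfap: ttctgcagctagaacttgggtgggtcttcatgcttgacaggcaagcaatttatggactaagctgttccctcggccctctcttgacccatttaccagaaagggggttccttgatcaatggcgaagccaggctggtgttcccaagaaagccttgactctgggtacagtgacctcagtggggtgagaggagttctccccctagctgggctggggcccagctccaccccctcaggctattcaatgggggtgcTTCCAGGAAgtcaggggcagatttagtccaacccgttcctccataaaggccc
Osmr: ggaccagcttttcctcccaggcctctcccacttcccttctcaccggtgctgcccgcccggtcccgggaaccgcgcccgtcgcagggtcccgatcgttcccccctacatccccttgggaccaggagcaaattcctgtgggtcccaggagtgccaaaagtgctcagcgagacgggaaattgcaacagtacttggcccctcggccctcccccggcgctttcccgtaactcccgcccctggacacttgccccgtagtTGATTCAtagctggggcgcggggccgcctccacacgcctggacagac
The Gfap match starts 2 bases before the start of transcription, and the Osmr match starts 3 bases after it. Of 32851 promoter windows of 300 bases, 8.3% held TTCNNNGAA and 7.81% held TGANTCA. Among the 9 members searched, 1 held the first motif and 2 held the second, the other being Gja1. Neither motif was found in more than 1 of the searched members that were higher in 5xFAD hippocampus.

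Hippocampal libraries held 13952825 to 23856476 counts, meningeal libraries 6601143 to 14708202 and mLEC libraries 14231415 to 24207326. All 8 astrocyte markers that are not members were above 0 in each group of hippocampi, with summed levels of 1185 to 1427 FPKM in WT, 1331 to 1721 in 5xFAD and 1233 to 1545 in 5xFAD + light. FPKM, a fragment count divided by transcript length and library size, is used for levels. Fold changes are log2 fold changes of counts from edgeR with their SE, and a gene passed the test when its p, adjusted over all genes tested in that tissue, was below 0.05. The 8 markers of plaque-associated microglia summed to 130 to 170 FPKM in WT, 816 to 1450 in 5xFAD and 563 to 1243 in 5xFAD + light, so each 5xFAD hippocampus stood above every WT hippocampus in these. In bulk tissue, more cells of a type and more RNA per cell cannot be told apart.

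In the hippocampus of 5xFAD mice, 6 of the 10 members were higher than in WT littermates: Gfap, Vim, Osmr, S100a6, Cd44 and Aqp4. Serpina3n, Lcn2, Slc1a2 and Gja1 did not pass the test, and no member was lower. Of all 12981 genes tested, 6.48% were higher and 2.06% were lower. Since earlier results were known when the members were chosen, shares of all genes are given for scale only. With a change of at least 2-fold also required, 5 members remained, Aqp4 being left out, against 4.23% of all genes. The members' median log2 fold change was 1.66, and that of all genes was 0.01. Gfap, Vim, Osmr, S100a6 and Aqp4 had higher FPKM in each 5xFAD mouse than in every WT mouse, and 8.75% of all genes were separated in this way. Markers of other cells were higher in the same comparison: 3 of 9 leptomeningeal fibroblast markers passed (Col1a1, Col1a2 and Fmod), 8 of the 9 were above 0 and their median log2 fold change was 1.2, and 5 of 6 leukocyte markers passed. The fibroblast markers summed to 32.9 to 67.9 FPKM in WT and 44.7 to 125 in 5xFAD, and the leukocyte markers to 144 to 163 and 251 to 377. Vim, S100a6 and Cd44 are also expressed in such cells, whose part in these calls was not tested.

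Gfap, the main intermediate filament of astrocytes, measured 263, 245, 234 and 219 FPKM in the 4 WT mice. It measured 2604, 877, 318 and 1441 FPKM in 5xFAD mice 1 to 4. The groups did not overlap, but the 5xFAD mice were far apart, with mouse 3 close to WT. On the log2 scale the fold change was 2.47 with an SE of 0.45, or 5.54-fold, with an adjusted p of 0.00352. Without mouse 1 it was 1.86, with an adjusted p of 0.00591. Gfap lies on mouse chromosome 11 from 102887336 to 102900912 on the minus strand (mm10).

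Vim encodes vimentin, a filament that is shared by reactive astrocytes, endothelial cells and fibroblasts, and it lies on chromosome 2 from 13573927 to 13582826. It measured 9.87, 11.07, 13.43 and 7.55 FPKM in WT and 123.3, 20.24, 17.7 and 45.9 FPKM in 5xFAD mice. Mouse 1 stood far above the other 5xFAD mice, and no 5xFAD mouse fell within the WT range. Vim had a log2 fold change of 2.39 with an SE of 0.53 and an adjusted p of 0.0124, and without mouse 1 it was 1.45, with an adjusted p of 0.0175. The other genes of the intermediate filament list gave no call: of 9 tested, Gfap and Vim were the 2 that passed.

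Osmr, the receptor subunit for oncostatin M, was present at a low level and lies on chromosome 15 from 6813577 to 6874969. Its WT values were 0.78, 1.14, 1.08 and 0.66 FPKM, and its 5xFAD values were 6.84, 2.86, 1.38 and 4.18 FPKM. The groups did not overlap, though mouse 3 was close to the highest WT mouse. Osmr had a log2 fold change of 2.11 with an SE of 0.40 and an adjusted p of 0.0043. S100a6, a calcium-binding protein of dividing and reactive cells, lies on chromosome 3 from 90612882 to 90624181. It measured 26.7, 26.5, 32.16 and 25.13 FPKM in WT and 191.5, 55.31, 87.4 and 75.83 FPKM in 5xFAD mice. Here mouse 3 was the second highest, unlike for Gfap and Osmr. The log2 fold change of S100a6 was 1.82 with an SE of 0.34 and an adjusted p of 0.00438.

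Cd44, a cell surface receptor for hyaluronan and osteopontin on chromosome 2 from 102811141 to 102901665, measured 1.74, 0.99, 0.78 and 1.25 FPKM in WT and 23.27, 2.19, 0.72 and 5.2 FPKM in 5xFAD mice. The groups overlapped, since mouse 3 was below every WT mouse. Its log2 fold change was 2.78 with an SE of 0.76 and an adjusted p of 0.0377. Without mouse 1 it was 1.21, with an adjusted p of 0.15, so both the size and the call rested on that library.

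Aqp4 measured 72.65, 73.35, 63.03 and 66.85 FPKM in WT and 193.3, 93.91, 74.66 and 158.6 FPKM in 5xFAD mice. On this scale all 4 5xFAD mice were above the WT mice, mouse 3 by little. As counts scaled to library size (CPM) the groups overlapped, with mouse 3 at 177 and WT mouse 1 at 181. Aqp4 had a log2 fold change of 0.88 with an SE of 0.23, or 1.84-fold, with an adjusted p of 0.029. Without mouse 1 it was 0.59, with an adjusted p of 0.0711. The genes that hold AQP4 at the endfoot gave 0 calls among 9 tested by edgeR, with a median log2 fold change of 0.01. Among them Kcnj10, the inward rectifier potassium channel of the same membranes, was at 10.64 ± 2.43 FPKM in WT and 13.95 ± 4.47 in 5xFAD (SD, n = 4 each), with a log2 fold change of 0.41 and an adjusted p of 0.318.

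Serpina3n did not pass the test although 3 of the 4 5xFAD mice were above every WT mouse. It measured 32.53, 33.66, 34.97 and 29.63 FPKM in WT and 216.6, 50.27, 18.7 and 72.16 FPKM in 5xFAD mice. Mouse 3 was below every WT mouse. Serpina3n had a log2 fold change of 1.48 with an SE of 0.51 and an adjusted p of 0.0916. Without mouse 3 it was 1.82, with an adjusted p of 0.007, and without mouse 1 it was 0.51, with an adjusted p of 0.34. It passed in 1 of the 8 fits that left out a library. Serpina3n is 1 of a cluster of closely related genes on chromosome 12 (104406729 to 104414329). Of the 11 Serpina3 genes listed, only Serpina3n and Serpina3g, the latter named after its values were seen, reached the level needed for testing, and Serpina3g was at 1.08 ± 0.879 FPKM in WT and 1.77 ± 1.89 in 5xFAD (SD, n = 4 each).

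Lcn2, which encodes lipocalin 2, also a product of neutrophils and of the choroid plexus, measured 4.42, 1.44, 0.51 and 0.06 FPKM in WT. It measured 8.76, 7.2, 0.76 and 1.43 FPKM in 5xFAD mice, and the groups overlapped. Lcn2 had a log2 fold change of 1.5 with an SE of 0.95, a 95% interval of -0.37 to 3.37 and an adjusted p of 0.366. Leaving out 1 library moved it between 0.96, without 5xFAD mouse 1, and 2.80, without WT mouse 1, and it passed in none of these 8 fits.

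**Figure D1:**
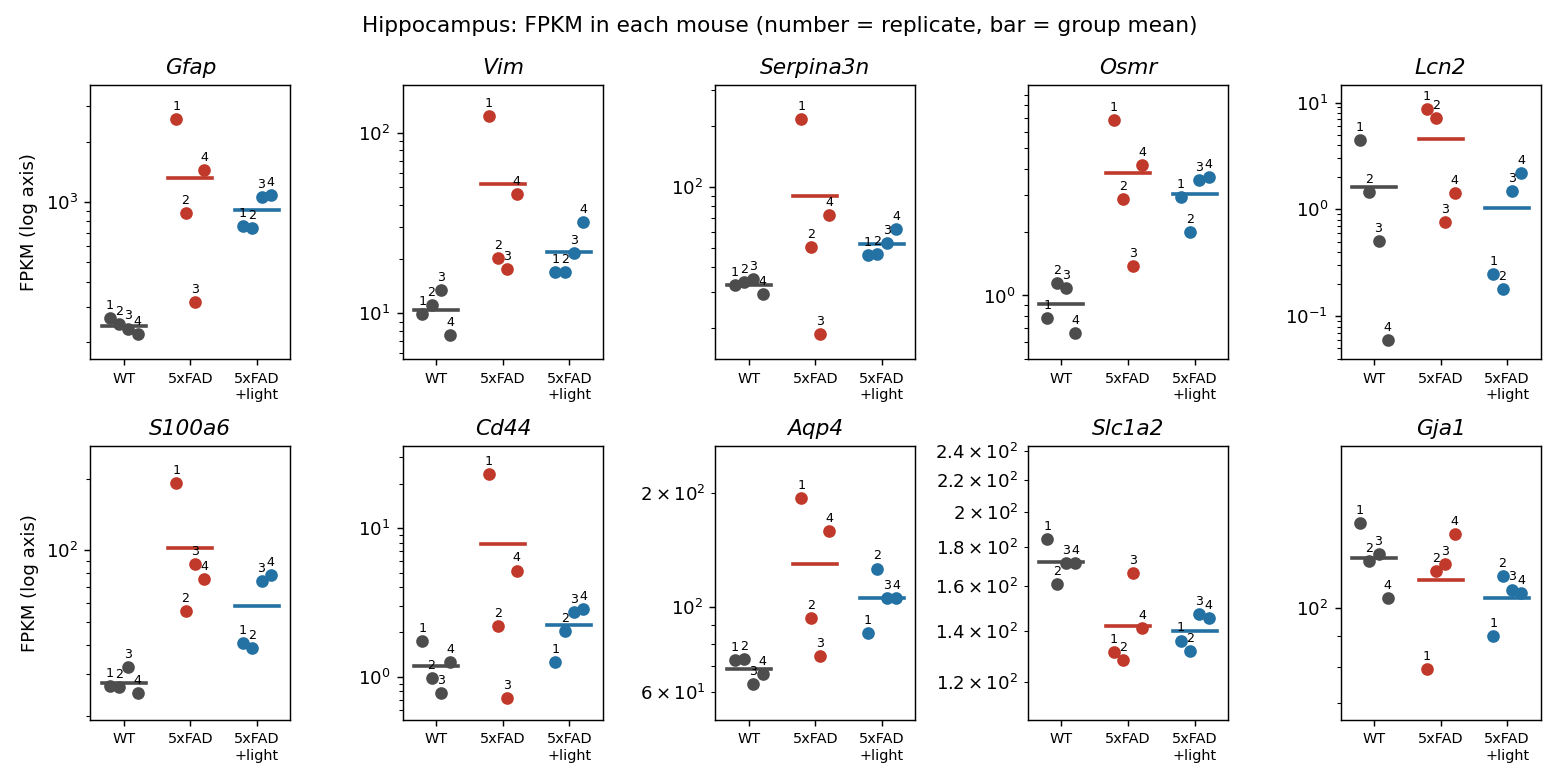
FPKM of the 10 members in each hippocampus on a log axis, for 4 WT, 4 5xFAD and 4 5xFAD + light mice. Points are mice marked with their replicate number and bars are group means. For Gfap, 5xFAD mice run from 318 to 2604 FPKM, and mouse 1 is the highest of its group for 8 members.

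The 5xFAD mice differed from each other over most members. Mice 1 and 2 were above every WT mouse in 8 of the 10 members, mouse 4 in 7 and mouse 3 in 5. Mouse 1 was at 10.8 times the WT mean for Gfap, 11.8 times for Vim and 19.6 times for Cd44. Mouse 3 was at 1.32 times the WT mean for Gfap, 0.572 times for Serpina3n and 0.605 times for Cd44. The plaque microglia markers did not set mouse 3 apart in the same way: they summed to 816 FPKM in mouse 3, 1450 in mouse 1, and 936 and 935 in mice 2 and 4. The astrocyte markers outside the members ran in another order, with 1331 FPKM in mouse 1, 1713 in mouse 2, 1721 in mouse 3 and 1459 in mouse 4. Left out in turn, each of the 8 libraries kept Gfap, Osmr and S100a6 past the test. Vim was lost only without WT mouse 4, with an adjusted p of 0.0508. Aqp4 and Cd44 were each kept in 3 of the 8, being lost without 5xFAD mouse 1 or without any 1 of the WT mice. Without a WT mouse the log2 fold change of Aqp4 stayed between 0.84 and 0.93 with adjusted p from 0.0593 to 0.0914, and that of Cd44 between 2.63 and 3.03 with adjusted p from 0.0726 to 0.108.

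**Figure D2:**
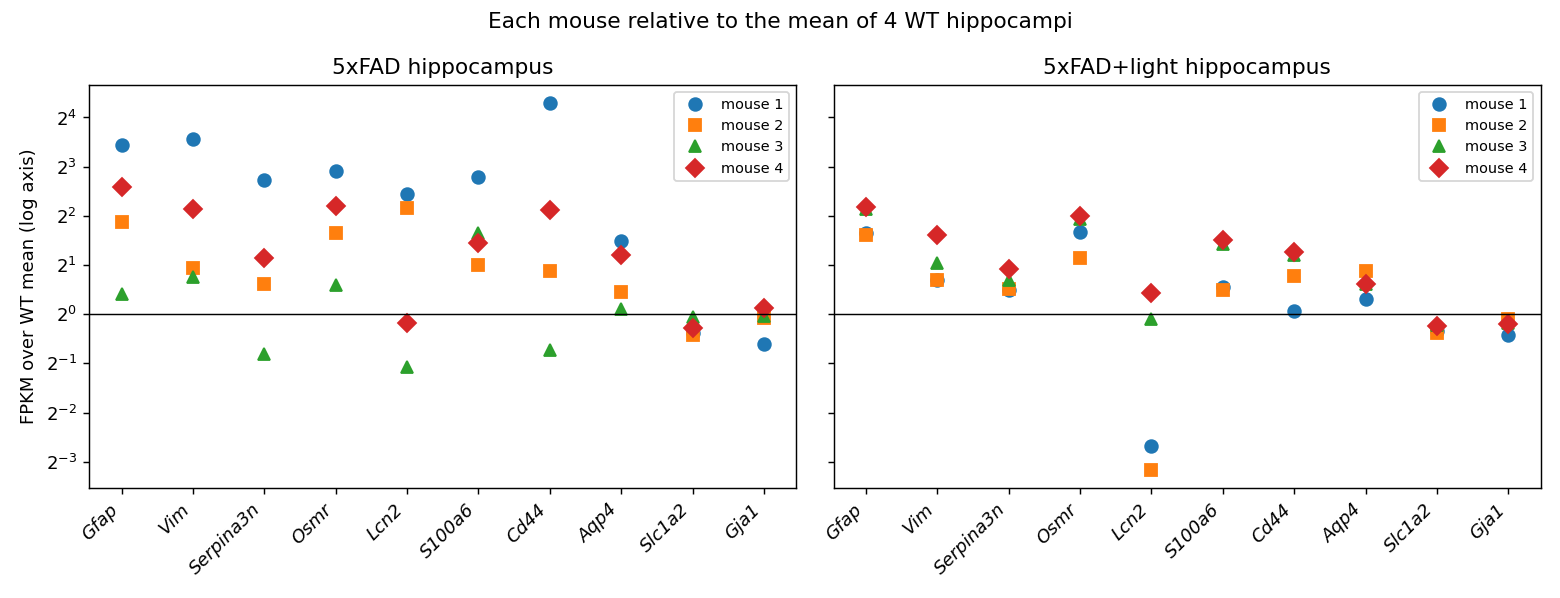
FPKM of each 5xFAD and 5xFAD + light hippocampus divided by the mean of 4 WT mice, on a log axis with 1 as the WT level. Each marker is 1 mouse. Untreated 5xFAD mice spread from 0.605 to 19.6 times WT for Cd44, but only from 0.746 to 0.968 for Slc1a2 and from 0.657 to 1.09 for Gja1.

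The 2 genes of resting astrocyte function gave no call in either direction. Gja1, which encodes the gap junction protein connexin 43 and lies on chromosome 10 from 56377330 to 56402513, measured 137.7, 119.1, 122.7 and 103.7 FPKM in WT and 79.38, 115.02, 117.85 and 131.95 FPKM in 5xFAD mice. The groups overlapped, and mouse 1, the highest for Gfap, was the lowest for Gja1. Gja1 had a log2 fold change of -0.12 with an SE of 0.14, a 95% interval of -0.38 to 0.15 and an adjusted p of 0.647. Of 8 connexin genes tested, Gjb2 alone was higher, with a log2 fold change of 0.96 and an adjusted p of 0.0205. Some fibroblast markers were higher in this comparison too, and which cells the Gjb2 reads came from was not tested. Gjb6, the other main astrocyte connexin, had a log2 fold change of 0.36 and an adjusted p of 0.168.

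For Slc1a2, the glutamate transporter GLT-1 on chromosome 2 from 102658659 to 102790784, the count scale and the FPKM scale differed. On the FPKM scale it measured 184.3, 161.1, 171.3 and 171.4 in WT, 131.5, 128.4, 166.6 and 141.3 in 5xFAD, and 136, 131.7, 147.1 and 145.5 in 5xFAD + light mice. All 4 light-treated mice were below every WT mouse, and 3 of the 4 untreated 5xFAD mice were. CPM values were instead 1396 ± 72.0 in WT, 1432 ± 279 in 5xFAD and 1417 ± 117 in 5xFAD + light (SD, n = 4 each). The edgeR log2 fold change of the counts was 0.04 with an SE of 0.13 for 5xFAD against WT, with a 95% interval of -0.21 to 0.30, and 0.02 for 5xFAD + light against WT, with an interval of -0.23 to 0.28. The 2 scales differ by the transcript length that the FPKM values imply for the gene in each sample. Single transcripts were not examined, and the cause of the difference was not tested. That length, worked out from count, FPKM and library total, was 8128 ± 523 bases in WT, 10086 ± 1456 in 5xFAD and 10139.6 ± 1019.9 in 5xFAD + light. In an exact two-sided permutation test of this length, chosen after the values were seen, 5xFAD + light against WT gave p = 0.0286, the smallest that 4 mice against 4 allow, and 0.206 after adjustment over 36 such tests. For 5xFAD against WT the exact permutation p was 0.114, since mouse 4 was at 7920 bases, within the WT range. The same test of FPKM gave p = 0.0286 for 5xFAD + light against WT and 0.0571 for 5xFAD against WT (exact permutation, 0.206 and 0.257 after adjustment). For CPM it gave 0.771 and 0.8. In meninges the implied length of Slc1a2 went the other way. It was 7656 ± 412 bases in 5xFAD + light (SD, n = 3) and 9983 ± 756 in WT (SD, n = 4). The exact permutation p was 0.0571, the smallest that 3 against 4 allow, and 0.257 after adjustment.

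**Figure D3:**
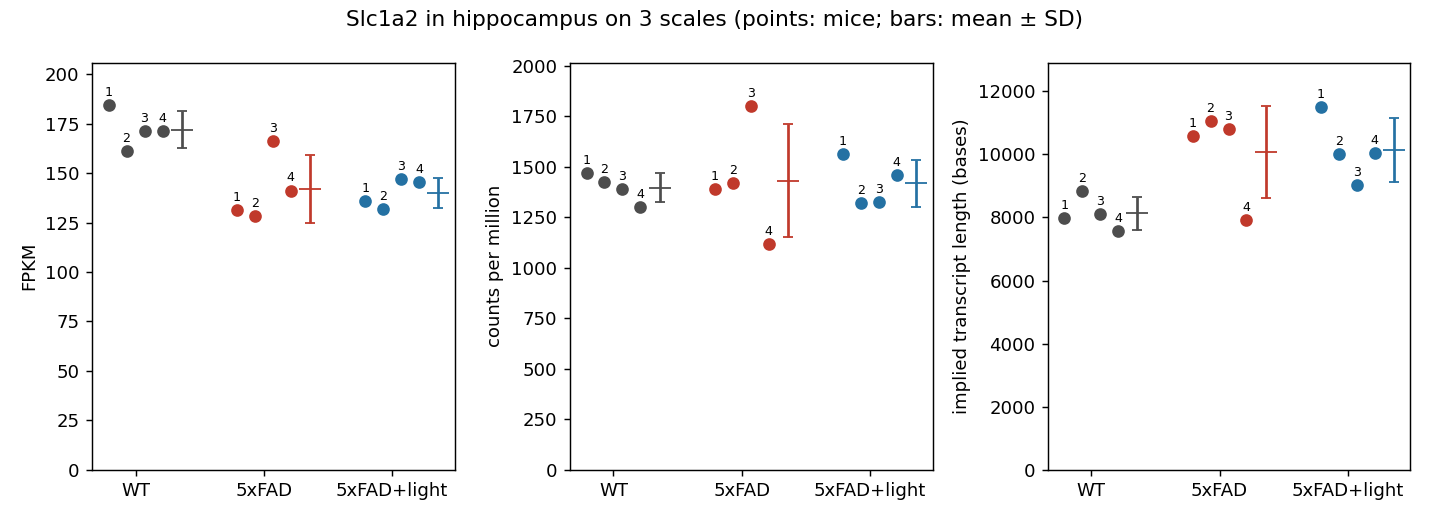
Slc1a2 in hippocampus as FPKM, as CPM and as the transcript length implied by both, for 4 mice in each of 3 groups. Points are mice with their replicate numbers, and bars give the mean and SD. FPKM is lower in 5xFAD + light than in WT while CPM values overlap, and the implied length is 10139.6 bases against 8128.

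The wider gene lists placed these members. Of 13 pan-reactive astrocyte genes, 12 were tested and 9 were higher in 5xFAD, with a median log2 fold change of 2.45. Besides the members Cd44, Osmr, Vim and Gfap, these included Aspg, Cxcl10 and Timp1. Aspg, an asparaginase gene, was at 0.665 ± 0.116 FPKM in WT and 5.92 ± 3.02 in 5xFAD, with a log2 fold change of 2.97 and an adjusted p of 0.00021. Timp1, a secreted inhibitor of matrix metalloproteinases, had a log2 fold change of 4.66 with an SE of 0.92. Of 11 tested genes of the list called A1, 9 were higher, led by H2-D1 with a log2 fold change of 2.37. Of the A2 list, 6 were tested and 4 were higher (Cd14, Sphk1, Tm4sf1 and S100a10). Several of these genes, such as the antigen presentation genes H2-D1 and Psmb8 and the co-receptor gene Cd14, are also known from microglia, of which all 8 markers were higher in 5xFAD and summed to 597 to 840 FPKM against 258 to 295 in WT. The part of microglia in these counts was not tested.

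Of 18 homeostatic astrocyte genes, 5 were higher in 5xFAD (Sox9, Aldh1l1, Aqp4, S100b and Atp1b2), none was lower, and the median log2 fold change was 0.21. Sox9, the astrocyte transcription factor, had a log2 fold change of 0.61 and an adjusted p of 0.0122. The glutamate transporter Slc1a3 was at 180 ± 17.5 FPKM in WT and 192 ± 11 in 5xFAD, with a log2 fold change of 0.11 and an adjusted p of 0.556. Glul, glutamine synthetase, was at 241 ± 16.7 and 254 ± 88.4 FPKM, with a log2 fold change of 0.09 and an adjusted p of 0.809. Among the glutamate genes, Slc1a5 and the glutamine transporter Slc38a3 were higher with log2 fold changes of 1.80 and 0.61, and Slc1a1, the neuronal transporter, was lower with a log2 fold change of -0.74.

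Of 16 genes of the oncostatin M, interleukin 6 and STAT3 pathway, 11 were tested, 4 were higher and 1 was lower. The higher ones included Osmr, Socs3 and Cntf, and the lower one was Lifr, the receptor subunit for leukemia inhibitory factor. Socs3, a feedback inhibitor that STAT3 induces, was at 0.465 ± 0.355 FPKM in WT and 4.21 ± 4.48 in 5xFAD, with a log2 fold change of 3.18 and an adjusted p of 0.00756. Stat3 itself had a log2 fold change of 0.75 and an adjusted p of 0.0515, and Il6st, the gp130 partner of OSMR, one of 0.45 with an adjusted p of 0.0661. The ligand Osm was at 0.09 ± 0.101 FPKM in WT and 0.557 ± 0.248 in 5xFAD, and Lif at 0.0975 ± 0.0519 and 0.328 ± 0.311, both under the level needed for testing. Of 11 S100 genes tested, 7 were higher, with the smallest adjusted p for S100a6 and S100a11. Spp1, which encodes the CD44 ligand osteopontin, was higher with a log2 fold change of 2.74 and an adjusted p of 0.00932.

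Light treatment was then compared within 5xFAD hippocampi. Light left 0 of the 10 members past the edgeR test, against 0.455% of all genes; DESeq2 and limma gave 0 members too. At an unadjusted p below 0.05 there were 3, Vim, S100a6 and Cd44, against 18.3% of all genes. The log2 fold change was below 0 for all 10 members, with a median of -0.67, while it was above 0 for 47.5% of all genes. Vim measured 16.97, 17.04, 21.68 and 32.14 FPKM in 5xFAD + light mice, with a log2 fold change against 5xFAD of -1.26 with an SE of 0.51 and an adjusted p of 0.209. S100a6 measured 40.5, 38.77, 74.45 and 78.64 FPKM, with a log2 fold change of -0.85 and an adjusted p of 0.198. Cd44 measured 1.25, 2.04, 2.74 and 2.85 FPKM, with a log2 fold change of -1.86 and an adjusted p of 0.2. For each of these 3 genes the light-treated and untreated 5xFAD mice overlapped.

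Most of these differences were smaller without 5xFAD mouse 1, and 3 changed sign. Without it the log2 fold change was above 0 for 3 members, Gfap at 0.08, Serpina3n at 0.16 and Osmr at 0.16, and below 0 for the other 7, and the median was -0.14. Vim was then at -0.32, S100a6 at -0.38, Cd44 at -0.29 and Aqp4 at -0.06, while Lcn2 stayed at -1.63. Slc1a2, close to 0 with all mice, changed sign without 5xFAD mouse 3, to 0.10. With all mice included, Gfap had a log2 fold change of -0.53 with a 95% interval of -1.37 to 0.31. Aqp4 measured 85.73, 126.4, 106 and 105.8 FPKM in 5xFAD + light mice, with a log2 fold change of -0.35 and a 95% interval of -0.80 to 0.09. Lcn2 measured 0.25, 0.18, 1.5 and 2.17 FPKM, with a log2 fold change of -2.17 with an SE of 1.01 and an adjusted p of 0.272.

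Markers of tissue around the hippocampus moved with the same comparison. The 8 choroid plexus markers summed to 212 to 3235 FPKM in 5xFAD, 66.8 to 249 in 5xFAD + light and 39.8 to 2843 in WT, and all 8 had a log2 fold change below 0 with light. The 10 leptomeningeal fibroblast markers summed to 44.7 to 125 FPKM in 5xFAD, 17.4 to 30.6 in 5xFAD + light and 32.9 to 67.9 in WT. Of their 9 tested genes all were below 0 with light, and Fmod passed with a log2 fold change of -2.13 and an adjusted p of 0.0482. No marker of either list was at 0 throughout a group. The 8 neutrophil markers were low, at 3.68 to 9.37 FPKM in 5xFAD, 0.25 to 3.64 in 5xFAD + light and 0.74 to 1.76 in WT. In 5xFAD mouse 1 they were at 3.68. The 8 mural cell markers summed to 23.4 to 32.2, 17.4 to 21.2 and 17.6 to 23.6 FPKM in the same order of groups. Vim, S100a6, Cd44 and Lcn2 are also expressed outside astrocytes, and the part of these tissues and cells in their values was not tested. In mouse 1, the highest for most members, the fibroblast markers were the lowest of the 5xFAD group at 44.7 FPKM and the choroid plexus markers the highest at 3235 FPKM.

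Against WT, light-treated 5xFAD hippocampi had 2 members past the test, Gfap and Osmr, against 3.05% of all genes that were higher. Gfap measured 759.8, 739.5, 1056.8 and 1084.7 FPKM with light, all above every WT mouse, and its log2 fold change was 1.94 with an SE of 0.44 and an adjusted p of 0.0244. Osmr measured 2.93, 2.01, 3.52 and 3.64 FPKM, also without overlap, and its log2 fold change was 1.76 with an SE of 0.39 and an adjusted p of 0.0219. This comparison shares its light-treated mice with the one before it and its WT mice with that of 5xFAD against WT. Both calls were lost without light-treated mouse 3 or 4 or WT mouse 1 or 4, with adjusted p from 0.0588 to 0.0859, and that of Gfap also without WT mouse 2 (0.0742) or 3 (0.0786), while the log2 fold changes stayed between 1.83 and 2.04 for Gfap and between 1.63 and 1.92 for Osmr. Gfap, Vim, Serpina3n, Osmr, S100a6 and Aqp4 were each higher in all 4 light-treated mice than in all 4 WT mice, against 7.33% of all genes. Slc1a2 was lower in this way on the FPKM scale, against 7.52% of all genes. Serpina3n, for example, measured 46.07, 46.71, 52.88 and 61.57 FPKM, but its log2 fold change of 0.67 had an SE of 0.50 and an adjusted p of 0.531. In this fit the 3 groups share 1 estimate of spread. With only the compared groups in the fit, 6 members passed, and the count over all genes, in either direction, rose from 466 to 1109. Of the pan-reactive list 4 were higher (Aspg, Cxcl10, Osmr and Gfap) and of the A1 list 7.

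**Figure D4:**
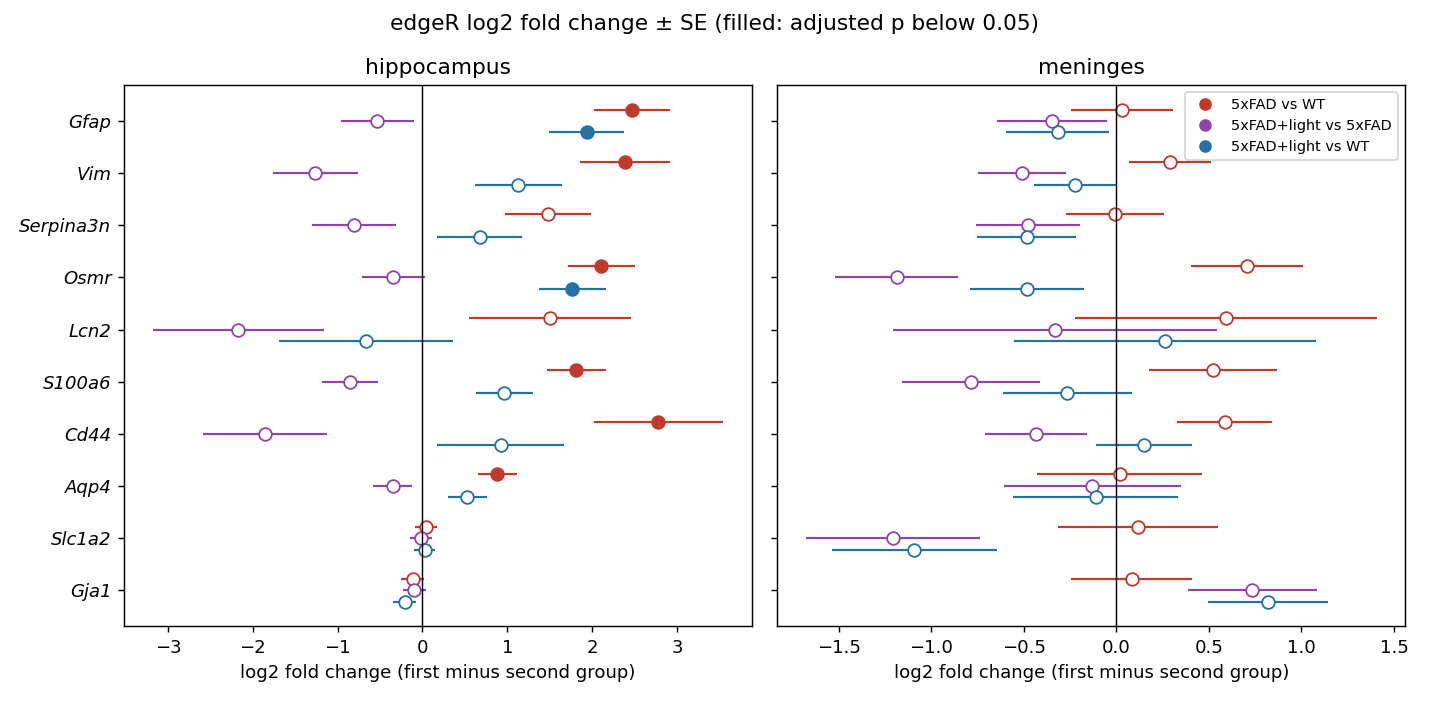
Log2 fold changes from edgeR with their SE for the 10 members in hippocampus and in meninges. Colours mark the 3 comparisons, and filled points passed an adjusted p of 0.05. The 2 panels have different ranges on the horizontal axis. All filled points are in hippocampus, 6 for 5xFAD against WT and 2 for 5xFAD + light against WT.

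The levels of the members in meninges differed from those in hippocampus. In WT mice, S100a6 measured 382, 541, 263 and 330 FPKM in meninges, a mean 13.7 times that of hippocampus. Lcn2 was at 37.3 times, Vim at 15.0 times, Osmr at 9.05 times and Cd44 at 5.59 times the hippocampal mean. Gfap at 15.98 to 35.27 FPKM, Aqp4 at 3.35 to 23.53 and Slc1a2 at 3.37 to 16.5 were lower there than in hippocampus, whose means were 9.73, 5.76 and 17.6 times as high. For these 8 genes and for Serpina3n the 2 tissues did not overlap in WT, while for Gja1 they did. The 8 astrocyte markers summed to 270 to 450 FPKM in WT meninges and the neuron markers to 198 to 558 FPKM, so markers of both cell types were detected in the meninges. Far above these were the choroid plexus markers, at 15924 to 42307 FPKM, and the neutrophil markers summed to 536 to 1568 FPKM. Lcn2 is a product of both, and their part in its meningeal level was not tested. These levels are described without a test.

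In the meninges no member passed the edgeR test in any of the 3 comparisons. For 5xFAD against WT, 0% of all genes passed, and 2 members, Osmr and Cd44, had an unadjusted p below 0.05, against 4.01% of all genes. Osmr measured 11.89, 7.97, 8.03 and 5.23 FPKM in WT and 11.49, 15.2 and 13.24 FPKM in 5xFAD meninges, with a log2 fold change of 0.71 with an SE of 0.30 and an adjusted p of 0.987. Gfap had a log2 fold change of 0.03 with an SE of 0.28, and Aqp4 one of 0.02 with an SE of 0.45. The difference between the tissues was tested directly. The 5xFAD effect on Gfap was larger in hippocampus than in meninges by 2.45 on the log2 scale, with an SE of 0.59 and an adjusted p of 0.0341. Gfap was the 1 member that passed this test, against 1.74% of 15132 genes, and Vim followed at 2.10 with an adjusted p of 0.0952. Leaving out 1 of the 15 libraries in turn, the Gfap difference passed in 5 cases and ran from 1.85, without 5xFAD hippocampus 1, to 2.78, without 5xFAD hippocampus 3. It was lost without any WT hippocampus, 5xFAD hippocampus 1 or 4, WT meninges 1 or any 5xFAD meninges, with adjusted p from 0.0584 to 0.084.

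With light, the meninges of 5xFAD mice had 0 members past the test, against 0.014% of all genes. Osmr and Slc1a2 had an unadjusted p below 0.05, against 12.7% of all genes. Osmr measured 6.3, 3.63 and 7.41 FPKM with light, below all 3 untreated 5xFAD samples and, in 1 case, below every WT sample, with a log2 fold change of -1.19 with an SE of 0.33 and an adjusted p of 0.286. Slc1a2 measured 12.66, 9.46 and 9.49 FPKM in 5xFAD and 3.66, 5.97 and 7.95 FPKM in 5xFAD + light meninges, with a log2 fold change of -1.21 with an SE of 0.47 and an adjusted p of 0.336. Vim, Osmr and Slc1a2 were lower in all 3 light-treated samples than in all 3 untreated ones, and 10.7% of all genes were separated in this way. Gja1 measured 50.37, 65.52 and 122.2 FPKM in 5xFAD and 131.3, 156.9 and 106.2 FPKM with light, and these overlapped. Against WT, 0 members passed in light-treated meninges, against 0.014% of all genes; Slc1a2 and Gja1 had an unadjusted p below 0.05, against 16.4% of all genes. The light effect did not differ between hippocampus and meninges past the threshold for any member, against 1.05% of all genes, and DESeq2 and limma gave 0 members in the meningeal comparisons too.

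Aqp4 in meninges was another case in which scales differed. It measured 23.53, 5.51, 15.54 and 3.35 FPKM in WT, 9.53, 4.17 and 6.2 in 5xFAD and 6.83, 18.3 and 11.13 in 5xFAD + light meninges. The mean FPKM was higher with light than without, yet the log2 fold change of the counts was -0.13 with an SE of 0.48. The implied transcript length was 5019 ± 187 bases in 5xFAD and 2582 ± 283 in 5xFAD + light (SD, n = 3 each). The exact two-sided permutation p was 0.1, the smallest that 3 against 3 allow, and 0.3 after adjustment. WT meninges were at 3298 ± 1399 bases (SD, n = 4), from 2262 to 5291, and overlapped both groups. In hippocampus the length was between 2098 and 2554 bases in all 12 mice. Even so, 5xFAD and WT overlapped in CPM and not in FPKM, with exact two-sided permutation p of 0.0571 and 0.0286 (0.257 and 0.206 after adjustment).

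In the sorted mLECs, 4 members were at or near 0 and 3 were high in every library. Their values come from a separately made table and are set beside the tissues without a test. Cd44, Aqp4 and Slc1a2 had a count of 0 in all 10 libraries and Gfap had 1 count in all of them together. A count of 0 allows up to 0.124 to 0.211 CPM, depending on the library, for counting error only. Gja1, also a connexin of endothelial cells, measured 443.7, 327.5, 109.1 and 231.6 FPKM in WT, 124.5, 103.4 and 153.5 in 5xFAD and 210.6, 119.7 and 96.2 in 5xFAD + light mLECs. Its log2 fold change for 5xFAD against WT was -1.34 with an SE of 0.55 and an adjusted p of 1.00, and the groups overlapped. Vim ran from 26.7 to 226 FPKM in WT, from 125 to 246 in 5xFAD and from 158 to 321 in 5xFAD + light libraries. Osmr ran from 12.7 to 54.1, from 36.9 to 53.4 and from 26.9 to 75.5 FPKM in the same order.

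Lcn2, S100a6 and Serpina3n were present in some mLEC libraries and nearly missing from others of the same group. Lcn2 measured 44.52, 0.06, 7.42 and 0 FPKM in WT, and S100a6 measured 40.84, 1.15, 131 and 20.89. Serpina3n was under 1 FPKM in 9 libraries and at 84.2 FPKM in 5xFAD library 1. Vim, Osmr, Lcn2, S100a6 and Gja1 were the 5 members tested, and 0 passed for 5xFAD against WT (0% of all genes), for light against 5xFAD (0%) and for light against WT (0.0122%). At an unadjusted p below 0.05 there was 1 member, Gja1, in the first comparison and 0 in the others, against 3.81%, 4.01% and 6.72% of all genes. Most lymphatic markers were uneven too. Prox1, the defining transcription factor, was at 0 in 3 of the 10 libraries and at most 5.71 FPKM. Pdpn was at 0 in 4, Lyve1 at 0 in 2, and Flt4 ran from 3.83 to 81.6 FPKM. Ccl21a was at 0 in 1 with a median of 3552 FPKM, and Pecam1 ran from 189 to 398. The 8 lymphatic markers summed to 227 to 7078 FPKM in WT, 1447 to 4728 in 5xFAD and 3347 to 9930 in 5xFAD + light. The part of lymphatic content in the mLEC comparisons was not tested. The blood endothelial marker Cldn5 ran from 159 to 2048 FPKM. The biological coefficient of variation was 1.89, against 0.198 in hippocampus and 0.35 in meninges, and the SE of the log2 fold changes reached 2.18 for S100a6 and 2.85 for Lcn2 in 5xFAD against WT, so that only very large differences could have been detected for these genes.

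**Figure D5:**
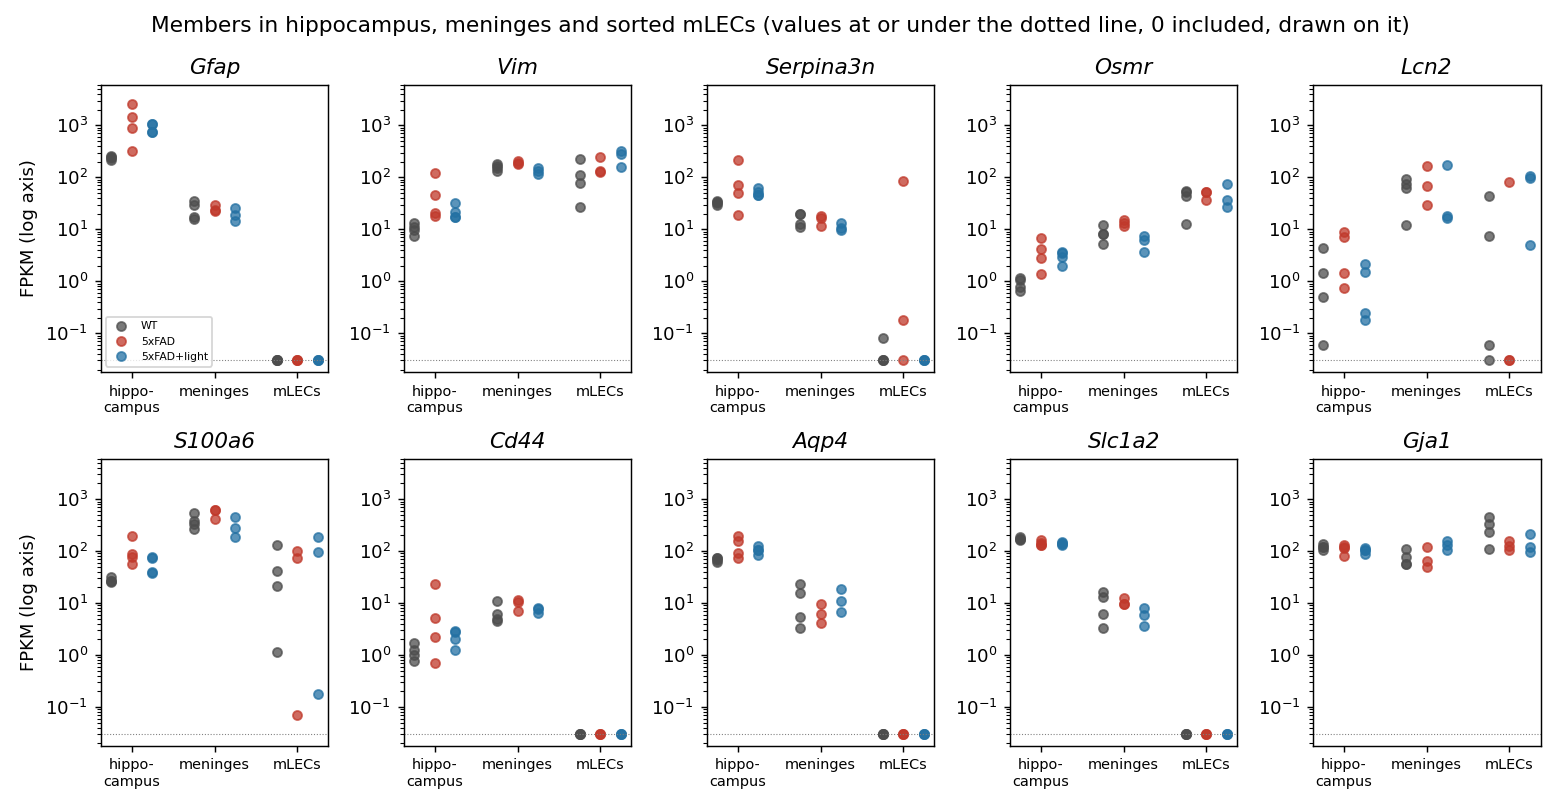
FPKM of the 10 members in hippocampus, meninges and sorted mLECs on a log axis, 1 point a sample, coloured by group. Values at or under the dotted line, 0 included, are drawn on it. Gfap, Cd44, Aqp4 and Slc1a2 lie on that line in the mLECs, whereas Vim, Osmr and Gja1 are high in them.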

How the data were processed

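RNA-seq was deposited for hippocampus and meninges in 1 table of 22 samples and for mLECs in another of 10. The authors deposited expected counts, that is estimated reads per gene with no normalization, and FPKM values, which divide them by transcript length and library size. The paper's methods give Smart-seq2 libraries primed with oligo-dT, read filtering with fastp and quantification with RSEM, whereas the submitters' processing notes name Trimmomatic, HISAT2, StringTie and DESeq2 with mm10, and which of these made the tables is not given in the sources used here. Gene symbols were those paired with the gene identifiers in the tables, and gene positions came from the GENCODE annotation of mm10.

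The rounded counts went into the quasi-likelihood test of edgeR 4.0.16 (TMM scaling) in R 4.3.3, the 3 groups of a tissue together, for every gene that reached 1 FPKM in 3 or more samples of the tissue: 12981 in hippocampus, 14318 in meninges and 8188 in mLECs. The difference between tissues was a contrast over 22 samples. Adjusted p (Benjamini-Hochberg) covers all genes tested. Replicates were separate samples, and 42 pairs of replicates differed by more than sampling noise (chi-square per degree of freedom 9.25 to 1858). Alternatives were median-of-ratios scaling, no filter, DESeq2 1.42.0, limma 3.58.1 on log2(FPKM + 1) and log2(FPKM + 0.1), the compared groups alone, a replicate block, a 2-fold limit and leaving out each sample. The fits were tested on simulated counts. All 10 members were named throughout; of 13 other gene lists and 14 marker lists, genes past the test were named, at most 6 a list in order of adjusted p, and a few pathway genes regardless. The members and lists were chosen with earlier results of these data known. Tests of the implied transcript length were added after the values were seen.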

Additional observations from a re-analysis of the deposited data

Results flagged for a closer look

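The effect of 5xFAD on Gfap differed between hippocampus and meninges by 2.45 on the log2 scale, by a direct test of the difference. The hippocampal log2 fold change was 2.47 and the meningeal one 0.03. The difference had an adjusted p of 0.0341, and it no longer passed in 10 of the 15 fits that left out 1 library (adjusted p from 0.0584 to 0.084), by limma with either pseudocount, or with the replicate block.

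Among 45 groups of 4 samples in which a member was looked at, 1 had a sample standing apart from the other 3: Lcn2 in the WT mLECs, at 44.5 FPKM in library 1. Chance alone gives about 1 in 20 such groups.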

How the results depend on the processing

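In hippocampus, the 6 members higher in 5xFAD than in WT numbered from 3 to 7 when 1 sample was left out, the lowest without WT mouse 4 and the highest without 5xFAD mouse 3, and 4 by limma with either pseudocount or with only the compared groups fitted. The 2 members higher in 5xFAD + light than in WT numbered 1 by limma on log2(FPKM + 1), 6 with only the compared groups fitted, and from 0 to 2 when 1 sample was left out. With only the compared groups fitted, the count over all genes also rose, from 466 to 1109. The 1 member whose 5xFAD effect differed between tissues became 2 by DESeq2, 0 by limma with either pseudocount, and from 0 to 2 when 1 sample was left out. The causes were not tested.

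Within a tissue, the replicate numbers gave little sign of pairing between groups: same-numbered samples deviated together by over 0.1 in 0 of 12 pairs in hippocampus, 2 of 9 in meninges and 0 of 8 in mLECs. Pairing across tissues was not checked, and the test of the difference between tissues treated all samples as unpaired. With the replicate block, 4 members passed for 5xFAD against WT, 1 for 5xFAD + light against WT and 0 for the difference between tissues. The counts of members for light against 5xFAD and for every meningeal and mLEC comparison stayed at 0 under each alternative that was run. Counts over all genes moved more: 1108 genes in 5xFAD against WT hippocampus ranged from 556 to 1721, and 59 for light against 5xFAD from 0 to 641. With 3 or 4 samples a group, and 3 in most groups outside hippocampus, moderate changes could be missed.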
